A study of Homo sapiens with 12 samples.

Results

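Cytochrome P450 genes other than the AHR-driven CYP1 genes, and the genes of the main conjugating enzymes, were followed in DLD1, a human colorectal cancer cell line, after 1 h with an aryl hydrocarbon receptor (AHR) ligand. The set held every counted symbol of the CYP, UGT, GST, MGST and SULT families that matched fixed name patterns and reached a mean of 0.3 CPM (reads of a gene scaled to a common library total) over the 12 libraries, leaving out CYP1A1, CYP1A2, CYP1B1 and CYP51A1. That gave 35 genes of 104 matching symbols, among 26485 symbols counted in all. They comprised 16 CYP, 1 UGT, 9 GST, 3 MGST and 6 SULT genes. Cells received 10 µM TCDD (a dioxin, the prototypical strong AHR agonist), 10 µM kynurenine (Kyn, made from tryptophan in the body and known as a weak AHR agonist), 10 µM CH223191 (CH, a synthetic AHR antagonist) or DMSO, the vehicle, whose amount the labels do not give. The sample labels write only CH for the third compound and the protocol does not mention it, so its name was taken from the title of the series and the dose from a statement for all the chemicals. Each group had 3 libraries of poly(A) RNA. The labels do not say whether these came from separate cultures, so p-values measure the spread between these libraries, which may be technical.

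Cells handle foreign and internal lipophilic molecules in steps. P450 monooxygenases insert oxygen, and transferases then attach glucuronic acid (UGT), glutathione (GST, and the membrane-bound MGST) or sulfate (SULT), which makes the products easier to export. Many P450s also act on internal substrates such as fatty acids, sterols, retinoic acid and vitamin D. The AHR, once bound by a ligand, pairs with ARNT and binds DNA at xenobiotic response elements whose core is GCGTG, and both UGT1A6 and CYP2S1 have been described as AHR targets in addition to the CYP1 genes.

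Counted reads ranged from 21397703 to 28247146 per library, and 13619 genes, all 35 members among them, had enough reads for a test. Kynurenine replicate 1 stood somewhat apart from its group, with a variance of counts of 5.18 and 5.14 times Poisson noise against replicates 2 and 3, and 1.83 between those 2. In DMSO, the reference group, replicate 1 gave 4.49 and 3.47 against replicates 2 and 3, and those 2 gave 3.02. Epithelial genes were high in every library (KRT8 at 4322 to 4926 CPM, EPCAM at 1199 to 1326 CPM), whereas of the colon-type genes CDX2 was at 92.8 to 168 CPM and FABP1 and CDX1 were at or near 0. Of 6 hepatocyte markers SERPINA1 was at 6.90 to 9.07 CPM and the others at 0.107 CPM or less. The 16 fibroblast, immune and endothelial markers lay between 0 and 10.4 CPM, LYZ being the highest, and DCN and KDR were at 0 throughout. CYP1A1, a check of the ligands, was at 427 ± 15.9 CPM with TCDD, 10.1 ± 1.01 CPM with kynurenine and 0.520 ± 0.188 CPM with CH, against 3.21 ± 0.142 CPM in DMSO (SD, n = 3 each). CYP1B1, another of the AHR-driven CYP1 genes, averaged 646 CPM with TCDD, 97.5 with kynurenine and 49.9 with CH, against 126 CPM in DMSO. With kynurenine, CYP1B1 thus fell (log2 fold change -0.37 ± 0.04 SE) whereas CYP1A1 rose (1.65 ± 0.10 SE).

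The start-site regions of 4 of the 6 members called with TCDD are shown to set the AHR core motif beside the responses. They cover 250 bases before to 50 bases after the RefSeq start (GRCh38.p14), 5′ to 3′ on the gene's strand, with capitals marking GCGTG or its reverse complement CACGC, each match on either strand counted, overlaps included. UGT1A6 (chr2:233691452-233691751, plus strand) and CYP39A1 (chr6:46652769-46653068, minus strand) rose with TCDD, and CYP2S1 (chr19:41192969-41193268, plus strand) and GSTM4 (chr1:109655849-109656148, plus strand) fell.
UGT1A6: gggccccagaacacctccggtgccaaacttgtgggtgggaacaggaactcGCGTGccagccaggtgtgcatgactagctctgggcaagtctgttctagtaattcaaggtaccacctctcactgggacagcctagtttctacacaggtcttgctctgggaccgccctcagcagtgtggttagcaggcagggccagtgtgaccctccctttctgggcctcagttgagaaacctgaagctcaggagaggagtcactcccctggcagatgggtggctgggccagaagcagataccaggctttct
CYP2S1: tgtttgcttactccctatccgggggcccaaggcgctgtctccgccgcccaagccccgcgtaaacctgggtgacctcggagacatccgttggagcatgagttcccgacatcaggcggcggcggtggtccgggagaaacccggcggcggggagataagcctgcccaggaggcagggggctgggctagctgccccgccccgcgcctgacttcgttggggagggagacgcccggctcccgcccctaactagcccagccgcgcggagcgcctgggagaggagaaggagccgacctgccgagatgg
GSTM4: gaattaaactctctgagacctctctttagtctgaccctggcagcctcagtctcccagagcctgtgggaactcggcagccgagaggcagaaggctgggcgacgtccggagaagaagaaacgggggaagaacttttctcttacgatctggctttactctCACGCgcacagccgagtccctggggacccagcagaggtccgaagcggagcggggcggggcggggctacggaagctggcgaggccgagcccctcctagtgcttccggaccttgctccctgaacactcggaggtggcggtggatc
CYP39A1: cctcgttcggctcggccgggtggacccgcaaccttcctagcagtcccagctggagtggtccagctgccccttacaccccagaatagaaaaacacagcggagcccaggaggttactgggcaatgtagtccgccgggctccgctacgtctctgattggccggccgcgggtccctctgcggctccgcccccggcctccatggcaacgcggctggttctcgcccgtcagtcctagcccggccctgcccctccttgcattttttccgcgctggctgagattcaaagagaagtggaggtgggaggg
UGT1A6 held 1 match, whose first base lay 200 bases before the start site. GSTM4 held 1, on the other strand and starting 93 bases before its start site, while these letters did not occur in the windows of CYP2S1 and CYP39A1. Nor did they occur in those of SULT1C3 and CYP26B1, the called members whose windows are not shown. Sites outside these 300 bases, such as farther upstream, were not searched, and binding of the AHR to any match was not tested. Windows were found for 29 of the 35 members, and not for CYP24A1, CYP27B1, CYP4F12, MGST2, SULT1A1 and SULT1A2. At least 1 match occurred in 10 of the 29 (34.5%) and in 9919 of all 27305 windows of this length (36.3%), so the members' share was close to that of all promoters. The other 8 members with a match were CYP20A1, CYP2J2, CYP2U1, CYP4V2, GSTM3, GSTZ1, MGST3 and SULT2B1.

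Glutathione transferases made up most of the RNA of the set. Per kb of canonical transcript (GENCODE 44), GSTP1, the pi-class enzyme typical of epithelia outside the liver, led with 564 CPM per kb and alone took 32.9% of the members' summed CPM. GSTO1, an omega-class enzyme that also reduces dehydroascorbate, followed with 102 CPM per kb, and GSTM4, of the mu class, with 74.9 CPM per kb. The membrane enzymes MGST1, MGST3 and MGST2 stood at 70.7, 53.6 and 35.4 CPM per kb, in that order, and GSTK1 (46.3) and GSTM3 (41.4 CPM per kb) lay among them. Below these came the P450s. CYP2J2, an epoxygenase of arachidonic acid, stood at 29.4 CPM per kb, CYP2S1, a P450 of epithelia outside the liver, at 14.4, and CYP4V2, a fatty acid hydroxylase, at 8.84 CPM per kb. Of the P450s of sterols, retinoic acid and vitamin D, CYP39A1 stood at 5.01, CYP2R1 at 3.19, CYP27B1 at 3.01 and CYP26B1 at 3.01 CPM per kb, with CYP24A1 at 0.520 and CYP27A1 at 0.339 CPM per kb below them. SULT2B1, which sulfates cholesterol, stood at 12.01 CPM per kb and held 60.1% of the SULT reads, while SULT1C3 and SULT1C2 stood at 1.48 and 1.36 CPM per kb.

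UGT1A6, which glucuronidates small planar phenols, was the only UGT in the set, at 0.834 CPM per kb. Of 673 reads on the 9 counted UGT1A symbols it held 630 (93.6%), with 20 for UGT1A1, 11 for UGT1A5 and 9 for UGT1A3. The UGT1A genes on chromosome 2 are alternative first exons spliced to shared last exons. In GENCODE 44 at least 1479 bases of UGT1A6 are shared, which is 28.7% of the exonic bases of all its transcripts together. The level per kb was taken over the shorter canonical transcript, of 2455 bases, so the 28.7% does not apply to it. HTSeq by default counts a read on several genes for none of them, so the level of UGT1A6 rests on its own exonic part and is a lower limit. Altogether 18 members had 10 CPM or more, 10 had 1 to 10 and 7 had less than 1 CPM.

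**Figure D1:**
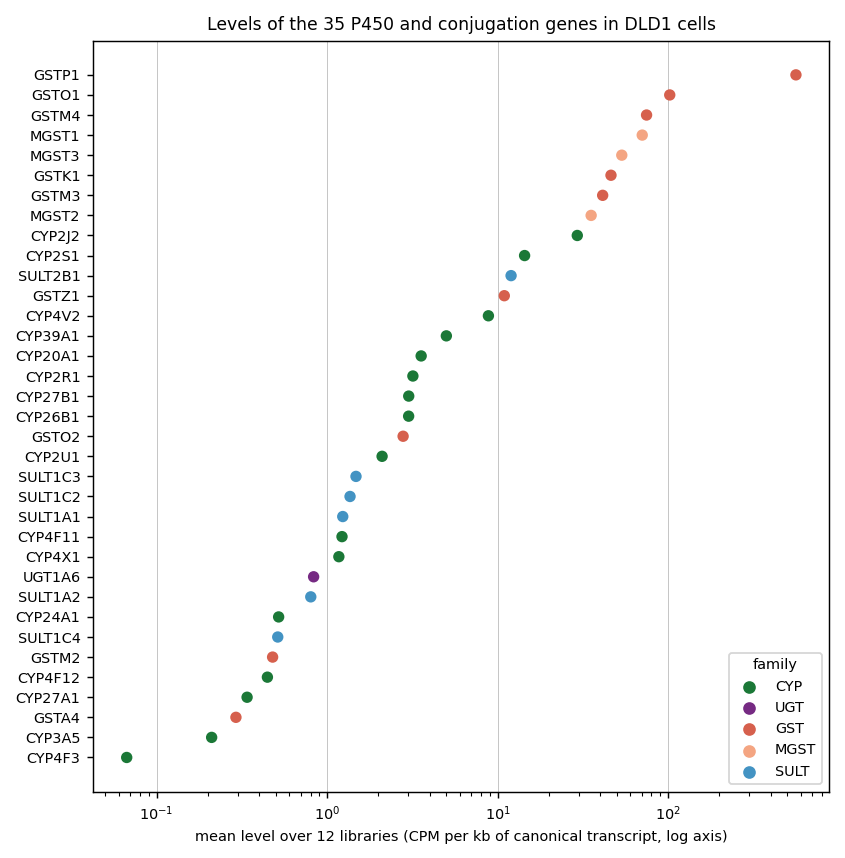
Mean level of each of the 35 members over the 12 libraries, in CPM per kb of canonical transcript on a log axis, coloured by gene family. GSTP1 lies at 564, the 3 MGST genes at 35.4 to 70.7, the highest P450, CYP2J2, at 29.4 and UGT1A6 at 0.834.

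Of the 69 matching symbols under the limit 26 had 0 counted reads in all 12 libraries and 43 had at least 1. For a gene whose reads can be assigned to it, a count of 0 allows a mean of at most 0.00967 CPM (3 counts over the 12 libraries, counting error only). CYP3A4, CYP2E1 and CYP2C8, which oxidise drugs in the liver, had 2 reads each over the 12 libraries, while CYP2D6 had 0. UGT2B7, a hepatic glucuronosyltransferase, had 55. GSTA1 and GSTA2, the alpha-class transferases of liver, had 0. SULT1A3 and SULT1A4 are nearly identical copies, so reads of the pair cannot be assigned to either, and their 0 sets no limit. Nor does that of GSTT1, for which GENCODE 44 gave no position. UGT1A8, UGT1A9 and UGT1A10 share exons with UGT1A6, so their 0 bears at most on their own exonic parts. Reads of other close paralogs of the set, such as the GSTM, CYP4F and SULT1A genes, can in part not be assigned either. Just above the limit lay CYP4F3 (0.337 CPM) and CYP3A5 (0.362 CPM), and just below it CYP26A1 (0.225 CPM) and CYP3A7 (0.213 CPM).

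TCDD was set against DMSO to see which of these enzymes respond early to strong AHR activation. It raised UGT1A6, SULT1C3 and CYP39A1 and lowered CYP2S1, GSTM4 and CYP26B1, by 0.16 to 0.63 on the log2 scale, against 7.05 for CYP1A1. Thus 6 of 35 members were called (17.1%) where 11.7% of all genes tested were, with 3 higher (5.91% of all genes) and 3 lower (5.83% of all genes). At an unadjusted p under 0.05 there were 9 members, 25.7%, against 24.8% of all genes. A call is an adjusted p under 0.05 in edgeR's quasi-likelihood test, with Benjamini-Hochberg adjustment over all 13619 genes. Without DMSO replicate 1 only CYP2S1 and CYP39A1 were called, 2 in all, and without TCDD replicate 1 the count was 3. The calls over all genes fell as well, from 1599 to 851 without DMSO replicate 1 and to 1144 without TCDD replicate 1.

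UGT1A6 had 3.21, 2.92 and 2.59 CPM in TCDD libraries, against 1.94, 2.10 and 1.76 CPM in DMSO libraries, on 63 to 79 reads per TCDD library and 48 to 58 reads per DMSO library. All 3 TCDD values lay above all 3 DMSO values, and the rise was 1.50-fold (log2 fold change 0.59 ± 0.17 SE, adjusted p = 0.020). The call ended without DMSO replicate 1 (adjusted p = 0.069), DMSO replicate 3 (0.086) or TCDD replicate 1 (0.097), at log2 fold changes of 0.51 to 0.59. SULT1C3, a cytosolic sulfotransferase of the SULT1C group, had 2.73, 2.05 and 2.18 CPM with TCDD, against 1.30, 1.55 and 1.65 CPM in DMSO, again without overlap (0.63 ± 0.18 SE, adjusted p = 0.020). Its call ended without DMSO replicate 1 (0.13) or TCDD replicate 1 (0.135), the library with the highest value. Its neighbour SULT1C4 averaged 1.70 ± 0.202 CPM with TCDD and 1.23 ± 0.176 CPM in DMSO (SD, n = 3 each), which did not pass (0.46 ± 0.21 SE, adjusted p = 0.16), and SULT1C2 had a log2 fold change of 0.13 ± 0.15 SE.

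CYP39A1, an oxysterol hydroxylase of bile acid synthesis, had 14.4, 14.6 and 12.3 CPM with TCDD, against 11.2, 10.4 and 11.2 CPM in DMSO. Its groups did not overlap, TCDD replicate 3 being the lowest of its group, and the rise was 1.26-fold (log2 fold change 0.33 ± 0.08 SE, adjusted p = 0.0040). This call held with each library left out in turn (highest adjusted p = 0.033).

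CYP2S1 fell with TCDD. It had 34.1, 33.6 and 30.4 CPM with TCDD, against 37.1, 38.3 and 40.1 CPM in DMSO, with every TCDD library below every DMSO library. The fold was 0.850 (log2 fold change -0.23 ± 0.05 SE, adjusted p = 0.0031), and this call too held with each library left out (highest adjusted p = 0.048). GSTM4 had 96.8, 93.1 and 98.2 CPM with TCDD, against 111, 103 and 108 CPM in DMSO (-0.16 ± 0.04 SE, adjusted p = 0.0083). The groups lay close but apart, and the call ended without DMSO replicate 1 (0.067). CYP26B1, which breaks down retinoic acid, had 12.8, 13.05 and 12.7 CPM with TCDD, against 14.8, 16.4 and 14.1 CPM in DMSO (-0.23 ± 0.08 SE, adjusted p = 0.039). Its call ended without DMSO replicate 1 (0.065) or 2 (0.18), TCDD replicate 1 (0.10), 2 (0.064) or 3 (0.13), or CH replicate 2 (0.0501), and also under DESeq2 (0.066).

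The remaining 29 members were not called with TCDD. GSTP1 averaged 409 ± 7.35 CPM with TCDD and 404 ± 5.07 CPM in DMSO (SD, n = 3 each), a log2 fold change of 0.02 with a 95% interval of -0.05 to 0.09. CYP2J2 (-0.11 ± 0.04 SE, adjusted p = 0.11), CYP4V2 (0.07 ± 0.05 SE), GSTO1 (-0.09 ± 0.05 SE) and SULT2B1 (-0.15 ± 0.08 SE, adjusted p = 0.24) did not pass either. CYP24A1, which inactivates vitamin D, had 1.34, 1.44 and 1.15 CPM with TCDD, against 1.91, 1.92 and 1.72 CPM in DMSO, but missed the threshold (-0.50 ± 0.19 SE, adjusted p = 0.086). It and other genes outside the naming rule are given because of their values. Its counterparts that activate vitamin D, CYP27B1 (0.05 ± 0.10 SE) and CYP2R1 (0.06 ± 0.11 SE), did not pass.

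**Figure D2:**
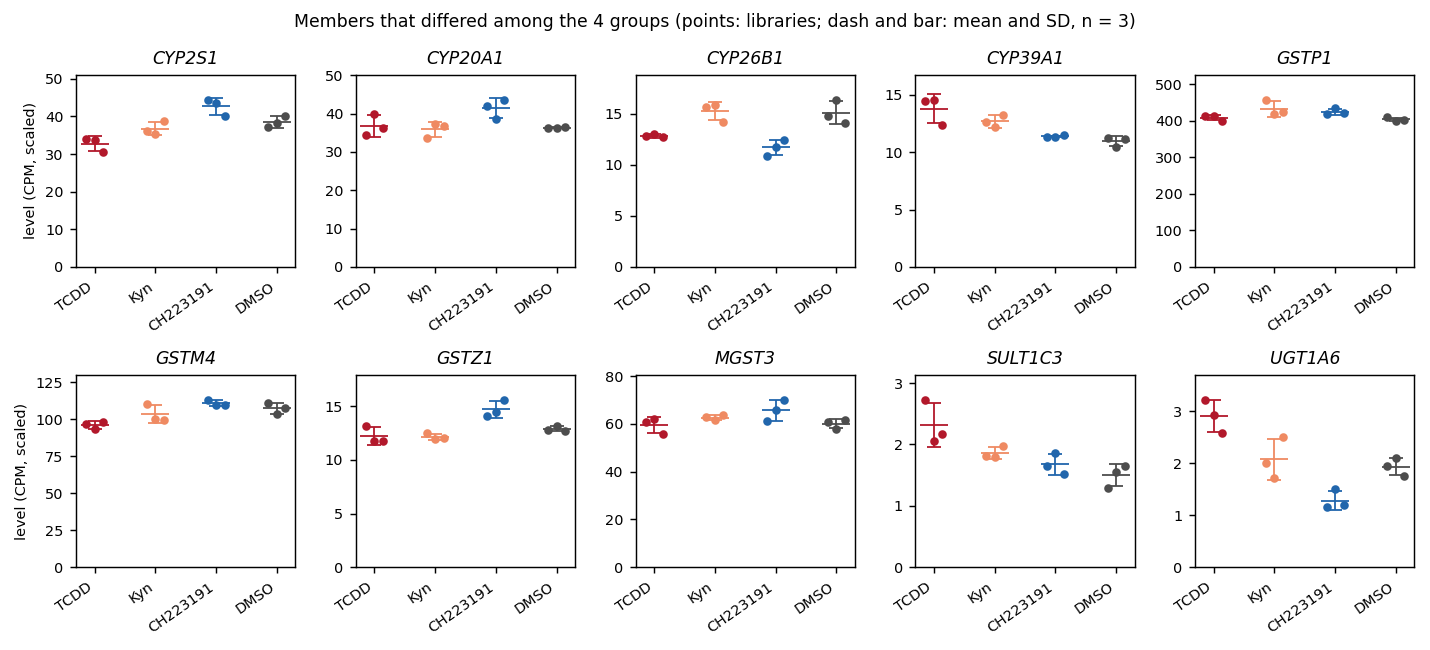
Level in CPM, scaled to library depth, of the 10 members that differed among the 4 groups, for TCDD, Kyn, CH223191 and DMSO from left to right. Points are libraries, and the dash and bar give the mean and SD of 3. For UGT1A6 the TCDD libraries lie at 2.59 to 3.21, above the DMSO libraries at 1.76 to 2.10, and the CH223191 libraries at 1.15 to 1.50 lie below them, whereas for CYP2S1 the TCDD libraries lie lowest.

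Kynurenine was set against DMSO in the same way, and 0 of the 35 members were called by edgeR, where 0.294% of all genes were. At an unadjusted p under 0.05 there were 2 (5.71%, against 6.7% of all genes), and DESeq2 called 0. These 2 were CYP39A1 and GSTP1. CYP39A1 had 12.6, 12.1 and 13.2 CPM with kynurenine, all above the 11.2, 10.4 and 11.2 CPM in DMSO (log2 fold change 0.21 ± 0.08 SE, adjusted p = 0.52). GSTP1 had 458, 418 and 424 CPM with kynurenine, against 410, 401 and 401 CPM in DMSO (0.10 ± 0.03 SE, adjusted p = 0.35), and the highest value belonged to replicate 1, the library that stood apart. Without it the count for kynurenine was again 0, and over all genes it was 42 in place of 40.

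UGT1A6 had 1.99, 1.72 and 2.50 CPM with kynurenine, spread on both sides of the DMSO values. Its log2 fold change of 0.09 had a 95% interval of -0.27 to 0.45. For CYP2S1, with 36.0, 35.4 and 38.7 CPM, the value was -0.07 and the interval -0.18 to 0.04. Among the 18 members of 10 CPM or more, 17 had a 95% interval within 0.3 of 0 on the log2 scale with kynurenine, and for the 7 members under 1 CPM the median SE was 0.38.

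CH223191 was set against DMSO to see what the antagonist does to the same enzymes. UGT1A6 and CYP26B1 fell, and CYP2S1, CYP20A1, GSTZ1 and MGST3 rose. These 6 of 35 members (17.1%) compare with 32.8% of all genes tested, split into 4 higher (15.9% of all genes) and 2 lower (16.9% of all genes). At an unadjusted p under 0.05 there were 10 (28.6%, against 42.1% of all genes). The count was 2 without DMSO replicate 1 or CH replicate 3, and 3 without DMSO replicate 2 or CH replicate 2. In these refits, in the same order, 3719, 3867, 4013 and 3510 of all genes were called, against 4468 with all libraries.

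UGT1A6 had 1.15, 1.50 and 1.20 CPM with CH, against 1.94, 2.10 and 1.76 CPM in DMSO, on 26 to 42 reads per CH library. The groups did not overlap, and the fold was 0.667 (log2 fold change -0.58 ± 0.20 SE, adjusted p = 0.021). The call ended without DMSO replicate 1 (0.053) or 2 (0.076) or CH replicate 1 (0.090) or 3 (0.057). CYP2S1 had 44.5, 43.5 and 40.2 CPM with CH, against 37.1, 38.3 and 40.1 CPM in DMSO (0.15 ± 0.05 SE, adjusted p = 0.021), with the lowest CH library just above the highest DMSO library. This call ended without DMSO replicate 1 (0.099) or 2 (0.0501) or CH replicate 1 (0.12) or 2 (0.073). The TCDD and CH comparisons share the DMSO libraries. Side by side UGT1A6 stood at 0.59 with TCDD and -0.58 with CH, and CYP2S1 at -0.23 with TCDD and 0.15 with CH. CYP26B1, also called in both comparisons, fell in both, at -0.23 with TCDD and -0.37 with CH.

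CYP26B1 had 10.9, 11.8 and 12.4 CPM with CH, against 14.8, 16.4 and 14.1 CPM in DMSO, with all CH values below all DMSO values (-0.37 ± 0.08 SE, adjusted p = 2.4e-04). The call held with each library left out in turn. CYP20A1, a P450 without a settled substrate, had 42.0, 38.5 and 43.6 CPM with CH, against 36.3, 36.4 and 36.5 CPM in DMSO, whose 3 libraries were nearly alike (0.18 ± 0.05 SE, adjusted p = 0.0086, and 0.059 without CH replicate 3).

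Of the transferases, CH raised GSTZ1 and MGST3. GSTZ1, the maleylacetoacetate isomerase of tyrosine breakdown, had 14.1, 14.5 and 15.6 CPM with CH, against 12.8, 13.2 and 12.7 CPM in DMSO (0.19 ± 0.07 SE, adjusted p = 0.046). Its call ended without any DMSO library, Kyn replicate 2 or 3 or CH replicate 2 or 3 (highest adjusted p = 0.18), with the replicate number as a block (0.051) and under DESeq2 (0.090). MGST3, a membrane glutathione transferase, had 61.4, 65.9 and 70.1 CPM with CH, against 60.7, 58.1 and 61.6 CPM in DMSO. These groups overlapped (0.13 ± 0.05 SE, adjusted p = 0.033), and the call ended without DMSO replicate 1 (0.054) or 2 (0.14) or CH replicate 2 (0.080) or 3 (0.22). GSTP1 (0.07 ± 0.03 SE, adjusted p = 0.0995), CYP4V2 (0.12 ± 0.05 SE, adjusted p = 0.068) and CYP2J2 (-0.05 ± 0.04 SE, adjusted p = 0.41) did not pass.

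Among the other members, the well-covered glutathione transferases GSTM3, GSTK1, GSTO2, MGST1 and MGST2 had log2 fold changes against DMSO between -0.06 (GSTM3 with TCDD) and 0.09 (GSTO2 with CH), and none was called. CYP2U1, a fatty acid hydroxylase, had values between -0.17 with TCDD and -0.02 with CH. CYP4F11, CYP4X1 and SULT1A1, all at 1 to 10 CPM, were not called either. The 7 members under 1 CPM were CYP3A5, CYP27A1, CYP4F3, CYP4F12, GSTM2, GSTA4 and SULT1A2. They gave the widest range, between -0.71 for GSTM2 (95% interval -1.46 to 0.04) and 0.73 for CYP3A5 (95% interval -0.09 to 1.56), both with CH, and neither was called (adjusted p = 0.14 for GSTM2 and 0.17 for CYP3A5). CYP3A5, a drug-metabolising P450 of gut and other tissues, had 10, 20 and 10 reads in CH libraries, against 8, 8 and 9 reads in DMSO libraries.

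**Figure D3:**
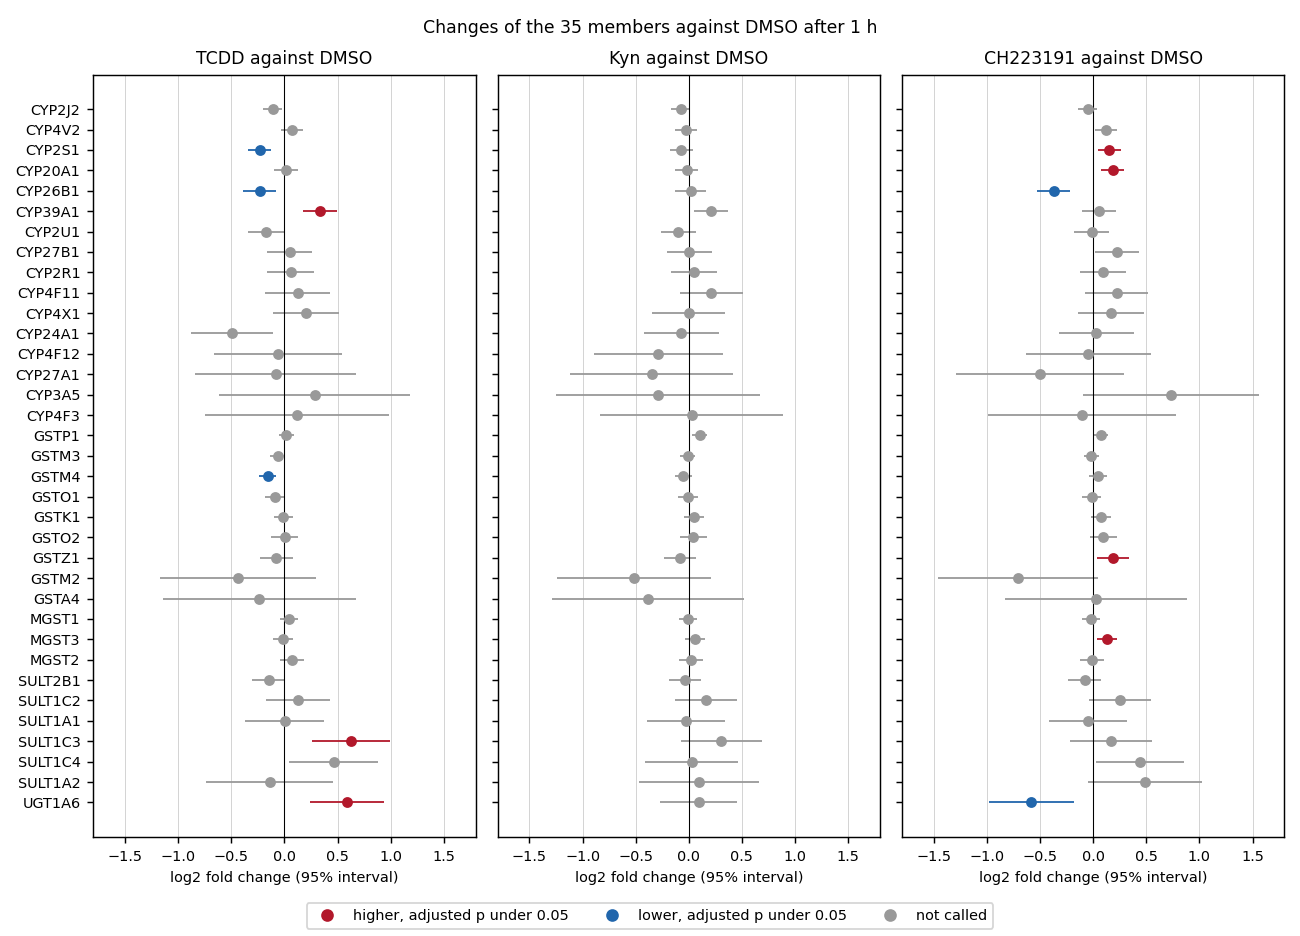
Log2 fold change against DMSO with its 95% interval for each of the 35 members, with TCDD, Kyn and CH223191 from left to right. Red and blue mark calls higher and lower at an adjusted p under 0.05. UGT1A6 is at 0.59, 0.09 and -0.58 and CYP2S1 at -0.23, -0.07 and 0.15, and members of few reads, such as CYP3A5, have wide intervals.

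The compounds, all at 10 µM for 1 h, were also compared directly in 3 pairs. TCDD against CH gave 9 calls of 35 members (25.7%), against 37.1% of all genes tested, with 3 higher (19% of all genes) and 6 lower (18.1% of all genes), and 10 (28.6%) at an unadjusted p under 0.05, against 45.3% of all genes. UGT1A6 averaged 2.91 ± 0.313 CPM with TCDD and 1.28 ± 0.189 CPM with CH (SD, n = 3 each), a 2.25-fold difference (log2 fold change 1.17 ± 0.19 SE, adjusted p = 4.7e-06). This was the largest called difference among the 35 members in the 6 comparisons, and it held with each library left out. CYP2S1 averaged 32.7 ± 1.98 CPM with TCDD and 42.7 ± 2.24 CPM with CH (-0.39 ± 0.05 SE, adjusted p = 4.1e-07), which held likewise. GSTM4 (-0.21), GSTZ1 (-0.26), CYP20A1 (-0.17), MGST3 (-0.14) and CYP24A1 (-0.52) were lower with TCDD than with CH, and CYP39A1 (0.28) and SULT1C3 (0.46) were higher. The calls of CYP39A1, GSTM4 and GSTZ1 held with each library left out, and those of the other 4 did not. The SULT1C3 call between TCDD and CH also ended with the replicate number as a block (adjusted p = 0.053), with library totals (0.0503), with no low-count filter (0.058), with the 2 groups alone (0.055) and under DESeq2 (0.11), and that of CYP24A1 under DESeq2 (0.086). Without CH replicate 3 the count was 5, and over all genes it was 4493 in place of 5052.

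Kynurenine against CH gave 6 calls (17.1%, against 33% of all genes tested), 2 higher (16.6% of all genes) and 4 lower (16.4% of all genes), and 9 (25.7%) at an unadjusted p under 0.05, against 42.5% of all genes. UGT1A6 averaged 2.07 ± 0.398 CPM with kynurenine and 1.28 ± 0.189 CPM with CH (SD, n = 3 each; log2 fold change 0.68 ± 0.20 SE, adjusted p = 0.0068, and 0.062 without Kyn replicate 3). CYP26B1 was higher with kynurenine, at 15.3 ± 0.906 CPM against 11.7 ± 0.761 CPM with CH (0.39 ± 0.08 SE, adjusted p = 1.4e-04). CYP2S1 (-0.22), CYP20A1 (-0.20), GSTZ1 (-0.27) and CYP4V2 (-0.14) were lower with kynurenine. The CYP4V2 call ended without Kyn replicate 2 (0.10) or 3 (0.069) or CH replicate 1 (0.18).

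Between the 2 agonists 1 member was called (2.86%, against 9.19% of all genes tested), 0 higher (5.1% of all genes) and 1 lower (4.09% of all genes) by edgeR, with 7 (20%) at an unadjusted p under 0.05, against 22.4% of all genes, and 0 called by DESeq2. The called member was CYP26B1, with 12.8 ± 0.183 CPM with TCDD and 15.3 ± 0.906 CPM with kynurenine (SD, n = 3 each; log2 fold change -0.25 ± 0.08 SE, adjusted p = 0.032), and this ended without any TCDD library or Kyn replicate 1 or 2 (highest adjusted p = 0.13). For UGT1A6 the difference between TCDD and kynurenine just missed the threshold (0.49 ± 0.17 SE, 95% interval 0.15 to 0.84, adjusted p = 0.059, and 0.026 without Kyn replicate 3), as it did for CYP2S1 (-0.16 ± 0.05 SE, 95% interval -0.28 to -0.05, adjusted p = 0.051). For CYP2S1 it passed without DMSO replicate 1 (0.049), TCDD replicate 1 (0.047), Kyn replicate 2 (0.042) or CH replicate 3 (0.043).

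Against DMSO, 18 of the 35 members had a positive and 17 a negative log2 fold change with TCDD, and the positive ones numbered 17 with kynurenine and 21 with CH. The members' median was 0.0019 with TCDD, against 0.00085 over all 13619 genes. With kynurenine it was -0.0052, against -0.0030 over all genes, and with CH 0.055, against 0.00098 over all genes. The median absolute change of the members was 0.12 with TCDD, 0.06 with kynurenine and 0.10 with CH, where all genes had 0.08 with TCDD, 0.05 with kynurenine and 0.12 with CH. A joint test of the 4 groups called 10 members (28.6%, against 43.6% of all genes), namely CYP2S1, CYP20A1, CYP26B1, CYP39A1, GSTP1, GSTM4, GSTZ1, MGST3, SULT1C3 and UGT1A6. By family, the 6 TCDD calls fell on 3 of 16 CYP, 1 of 9 GST, 1 of 6 SULT and the 1 UGT gene. The summed level of the CYP members was 225 ± 4.06 CPM with TCDD, 228 ± 3.32 CPM with kynurenine and 242.5 ± 4.59 CPM with CH, against 232 ± 4.90 CPM in DMSO, and that of the GST members 828.5 ± 8.83 CPM with TCDD, 874 ± 37.9 CPM with kynurenine and 875 ± 8.85 CPM with CH, against 849 ± 14.7 CPM in DMSO (SD, n = 3 each).

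**Figure D4:**
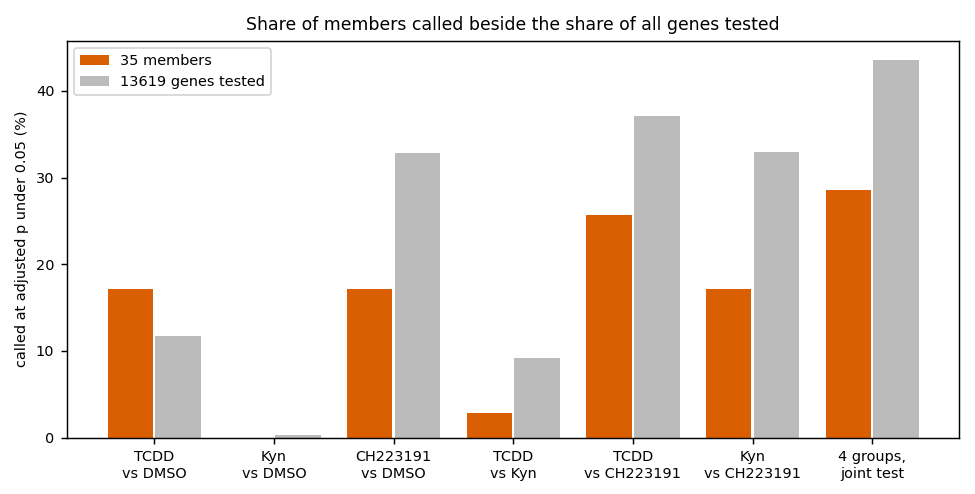
Percentage of the 35 members and of the 13619 genes tested that were called at an adjusted p under 0.05, in 6 comparisons and the joint test. With TCDD against DMSO the members' share is 17.1 and that of all genes 11.7, and in the other comparisons and the joint test the members' share is the lower one.

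Genes that supply or complement these enzymes were followed in 7 hand-written lists. Against DMSO, 5.91% of all genes tested were higher and 5.83% lower with TCDD, and 15.9% were higher and 16.9% lower with CH, which is the background of the counts in these lists. Of the P450 electron donors TCDD raised 1 and lowered 1 of 11 tested, CYB5B, a cytochrome b5 (log2 fold change 0.12 ± 0.03 SE), and FDX1, the ferredoxin of mitochondrial P450s (-0.17 ± 0.04 SE). Of 9 genes of UDP-glucuronate supply and removal TCDD raised UGP2, which makes UDP-glucose (0.15 ± 0.03 SE), and lowered PGM1 (-0.17 ± 0.04 SE). Of 9 genes of sulfate donor (PAPS) supply and sulfate removal it lowered PAPSS2, a PAPS synthase (-0.15 ± 0.04 SE). Of 19 tested genes of the list of receptors and hepatic factors it raised 3, PPARA (0.42 ± 0.06 SE), NFE2L2 (0.26 ± 0.03 SE) and PPARG (0.31 ± 0.05 SE), and lowered CEBPB (-0.19 ± 0.06 SE).

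Of 10 genes of glutathione supply and removal TCDD raised 2, among them SLC7A11, the cystine importer (0.37 ± 0.06 SE). With CH, where 15.9% of all genes were higher and 16.9% lower, 5 of the 10 rose and 1 fell, led by CHAC1, which degrades glutathione (1.94 ± 0.06 SE), and SLC7A11 (1.52 ± 0.05 SE), with GCLC, the rate-limiting synthetic enzyme, at 0.29 ± 0.04 SE. Of 19 tested genes of other phase I oxidation and hydrolysis 7 rose with CH (15.9% of all genes did), among them NQO1 (0.29 ± 0.03 SE), CBR4 (0.43 ± 0.05 SE), CES2 (0.35 ± 0.05 SE) and AKR1C3 (0.44 ± 0.07 SE), while TCDD raised NQO1 (0.17 ± 0.03 SE) and lowered EPHX1 (-0.12 ± 0.03 SE). CH raised 1 and lowered 2 of the electron donors, raised 1 and lowered 1 of the UDP-glucuronate list, raised 2 and lowered 2 of the PAPS list, raised 5 and lowered 3 of the receptors and factors, among them CEBPB (0.62 ± 0.06 SE), and raised TST, a sulfurtransferase (0.14 ± 0.05 SE), of 5 tested genes of other conjugation. With kynurenine, where 0.294% of all genes tested were called, 1 gene of the 7 lists was called, NQO1 (0.15 ± 0.03 SE, adjusted p = 0.023). Of the markers of the cells themselves CDX2 (0.41 ± 0.04 SE) and CDH17 (0.38 ± 0.04 SE) rose and CDH1 (-0.13 ± 0.03 SE) and KRT18 (-0.12 ± 0.03 SE) fell with TCDD, and CDX2 (-0.37 ± 0.04 SE) fell with CH. The summed level of the 6 intestinal markers was 289 to 300.2 CPM in TCDD libraries, 216 to 237 CPM in Kyn libraries and 198 to 199 CPM in CH libraries, against 223 to 229 CPM in DMSO libraries. Nearly all of this sum was CDX2 and CDH17, as VIL1 lay at 1.99 to 2.97 CPM and LGALS4 at 0.218 to 0.782 CPM over all libraries. CDH17 averaged 100 ± 1.12 CPM with CH and 100 ± 3.23 CPM in DMSO (SD, n = 3 each). The part of these markers in the changes of UGT1A6 and CYP2S1 was not tested.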

How the data were processed

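Poly(A) RNA of 12 DLD1 libraries, 3 per group, was measured by sequencing. Each deposited file gives unnormalized counts of reads per gene symbol. The submitters' processing notes name Trim Galore, STAR, SAMtools 1.9, HTSeq and the build hg38, and the STAR release differs between these notes and the protocol in the labels. The strand setting is not given in the sources used here, and HTSeq by default counts no read that lies on several genes, as on the shared UGT1A exons.

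Samples were grouped by their titles. No 2 libraries agreed within sampling noise (variance of at least 1.83 times Poisson noise). No pairing was used, as the labels do not say that a replicate number marks a shared culture or day. Over all genes tested, deviations of same-numbered libraries of different groups had correlations of -0.055 to 0.037. Libraries of other numbers had -0.053 to 0.083. Genes were filtered with filterByExpr (minimum count 10), scaled by TMM factors (0.988 to 1.02) and fitted in R 4.3.3 with edgeR 4.0.16 as 1 quasi-likelihood model of 12 libraries with 1 coefficient per group. Adjusted p-values, 95% intervals and SEs come from this fit, and CPM from the scaled totals, except for the member limit, which used raw totals. Each SE was derived as the absolute log2 fold change over the square root of the F statistic. The 95% intervals were built from this SE with a t quantile. The procedure was tested on simulated data. Members and lists were chosen with earlier results of these data known. Genes named were those called against DMSO, CYP2S1, UGT1A6, the 3 highest per kb in each family, the 2 members nearest the limit and the 2 symbols below it, and up to 4 called genes per list. Alternatives were RLE factors, library totals, other filters, a replicate block, DESeq2 1.42.0, GC and length trends removed, the 2 groups alone and each library left out. Sequences came from RefSeq (GRCh38.p14).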

Additional observations from a re-analysis of the deposited data

How the results depend on the processing

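The counts of called members kept within 1.5 times of the reported value under RLE factors, library totals, no low-count filter, the 5 CPM filter, a limit of 1 CPM for members, a replicate block, the 2 groups alone and removal of GC and length trends, except between TCDD and kynurenine, where RLE factors, no low-count filter and the 5 CPM filter each gave 2 in place of 1 and DESeq2 gave 0. With TCDD against DMSO, DESeq2 called 3 members in place of 6 and gave no adjusted p for UGT1A6 and SULT1C3, and the 5 CPM filter did not test these 2. Leaving out each library in turn gave 2 to 6 with TCDD against DMSO, 0 with kynurenine against DMSO, 2 to 8 with CH against DMSO, 0 to 2 between TCDD and kynurenine, 5 to 9 between TCDD and CH, 4 to 7 between kynurenine and CH, and 7 to 11 in the joint test. The calls over all genes moved too in these refits. Against DMSO they ranged from 805 to 1912 with TCDD, 30 to 44 with kynurenine and 3510 to 4743 with CH. With the replicate number as a block the counts of members were 6 with TCDD, 0 with kynurenine and 5 with CH against DMSO, 1 between TCDD and kynurenine, 8 between TCDD and CH, and 7 between kynurenine and CH. With GC and length trends removed, edgeR no longer called CYP26B1 with TCDD (log2 fold change -0.21, adjusted p = 0.072), GSTZ1 (0.16, adjusted p = 0.077) and MGST3 (0.09, adjusted p = 0.11) with CH, CYP4V2 between kynurenine and CH (-0.09, adjusted p = 0.13) and MGST3 in the joint test, and newly called CYP2J2 with TCDD and in the joint test. No named member changed direction in a called comparison under any of these settings. The cause of the lost calls was not tested. Some of these settings leave fewer libraries or genes. Depth limits the precision of the 7 members under 1 CPM, whose median SE was 0.37 to 0.41 on the log2 scale.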
